A study of Rattus norvegicus with 18 samples.

Results

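The genes described here are the 150 Ensembl rat genes whose values spread most between libraries of one and the same group, in hearts of Wistar-Kyoto (WKY) rats, of spontaneously hypertensive rats (SHR) and of SHR given QDG. They were selected on their within-group spread, among genes that reached 1 FPKM (fragments per length of gene and per size of library) in 6 or more of 18 libraries. For each gene the standard deviation (SD) of log2(FPKM + 1) was pooled within the 3 groups, after removal of the group means, over 15 degrees of freedom. Genes whose SHR and WKY means differed by 1 or more on that scale were left out, and the 150 largest SDs were kept. The files list 37262 genes, of which 17397 passed the filter on low values. Of these, 12396 were Ensembl genes and 5001 came from NONCODE, which catalogues noncoding transcripts. The strain limit removed 170 Ensembl genes, 26 of which would otherwise have ranked among the 150, and left 12226 candidates. All 150 members passed the filter, since the rule required it.

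RNA from heart tissue was depleted of ribosomal RNA and sequenced in 18 libraries, 6 per group. The groups were WKY, the normotensive strain commonly set beside SHR, SHR given NS (called SHR below) and SHR given QDG (called QDG below). What NS and QDG stand for is not spelled out in the labels, which also give no dose, time or age and leave unsaid whether WKY rats received NS. Separate animals are not stated either, so a p-value below measures the spread between these libraries.

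A gene can vary between hearts of one group because the animals differ in state or genotype, or because the dissected pieces hold different shares of muscle, vessel, blood or connective tissue. In bulk tissue, fewer cells of a type and less RNA per cell cannot be told apart. A value per gene is also an estimate: where gene models overlap or near-identical copies exist, a counting program has to assign shared reads, and small changes in the reads can move them from one model to another. The files give no gene names, and 0 of the 150 identifiers could be matched to a symbol in the reference table used here, so functions are not stated and cell type markers could not be looked up. The heart label was for the same reason not checked against marker genes. The summed FPKM ran from 598626 to 676288 over the 18 libraries, and the depth in reads is unknown.

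The within-group SD chose the members and is given as a description. It ran from 0.50 to 4.36 among the members, with a median of 0.69, and its median over all 12396 Ensembl genes kept was 0.13. The 3 members of smallest SD stood at 0.504, 0.504 and 0.502, and the 3 genes just outside at 0.501 each. The members were not unusually abundant. Their mean levels had a median of 4.84 FPKM against 7.18 over all Ensembl genes kept, and ran from 0.668 to 2473 FPKM. A mean of at least 10 FPKM was reached by 40 members and a mean of at least 100 FPKM by 4.

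The spread took 3 forms, which were defined after the values were seen. A member was called two-level when a single split of its 18 values held at least 0.9 of their variance on the log2 scale and the gap between the levels was at least 0.8, with 2 or more libraries on each side. It was called single-library when such a split set 1 library apart, and graded otherwise. By this rule 61 members (40.7%) were two-level, 8 (5.33%) were single-library and 81 (54.0%) were graded. Of the other 12246 Ensembl genes kept, 73 (0.596%) were two-level, and 7 of these had strain means less than 1 apart. Among NONCODE genes kept 194 of 5001 (3.88%) were two-level. A clean split with a wide gap gives a large SD by itself, so these shares are a description. Among the 50 members of largest SD 32 were two-level, against 14 of the 50 of smallest SD.

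**Figure D1:**
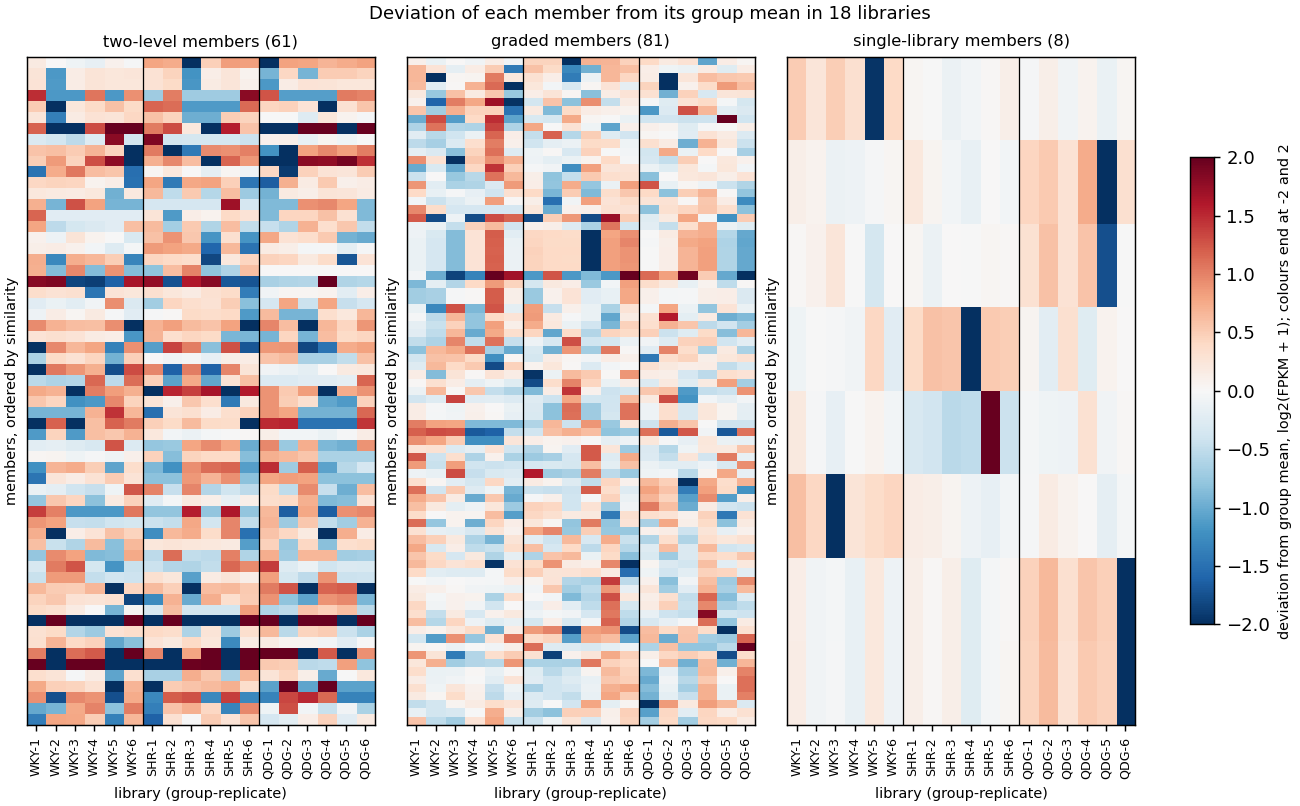
Deviation of each member from the mean of its own group on the log2(FPKM + 1) scale (colour, ending at -2 and 2), with 1 row per member and 1 column per library, for the 61 two-level, 81 graded and 8 single-library members. Dark cells are scattered over all 18 libraries in the two-level panel, whereas the graded panel shows vertical stretches in WKY replicate 5, SHR replicate 4 and SHR replicate 5.

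The member of largest SD, ENSRNOG00000047746, was either listed at 0 or stood at 184 FPKM or more. Identifiers in the paragraphs on two-level, single-library and abundant members were chosen after their values were seen. In WKY it was at 413 FPKM in replicate 2 and 184 in replicate 6 and listed at 0 in replicates 1, 3, 4 and 5. In SHR it was at 269 FPKM in replicate 2 and 344 in replicate 6 and listed at 0 in the other 4. In QDG it was at 287, 386, 706 and 588 FPKM in replicates 1, 3, 4 and 6 and listed at 0 in replicates 2 and 5. No library lay between 0 and 184 FPKM, and each group held libraries at either level. A value of exactly 0 in such a file can be a failed estimate, so it is reported as listed and not as an absence of RNA.

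ENSRNOG00000045683 showed the same form with the higher level more frequent. Its WKY values were 26.5, 25.2, 0, 32.0, 27.8 and 25.4 FPKM in replicates 1 to 6. In SHR they were 0, 22.9, 20.4, 25.2, 0 and 24.1 FPKM, and in QDG 26.6, 20.3, 25.5, 0, 23.7 and 26.5 FPKM. It was thus listed at 0 in 4 libraries, and the 14 others lay between 20.3 and 32.0 FPKM, with the groups overlapping at both levels.

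Most two-level members resembled ENSRNOG00000045683 in the narrowness of the higher level. The coefficient of variation within the higher level had a median of 12.6% over the 61 members (2.76% to 69.7%) and was under 20% in 50 of them. The lowest FPKM of the higher level had a median of 3.99 and the highest FPKM of the lower level a median of 0.186. The lower level was below 1 FPKM in every low library for 42 members, below 0.1 FPKM for 28, and listed at 0 throughout for 22. A zero in at least 1 library was listed for 43 of the 150 members, 27 of them two-level and 12 graded. Among the other Ensembl genes kept the share was 0.457%. In a gene that passed the filter, a listed 0 tends to widen the SD that chose the members. These shares are therefore a description, and nothing is read from their difference.

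Low levels were spread over the groups. Both levels occurred in all 3 groups in 44 of the 61 two-level members, in 2 groups in 15 and in a single group in 2. Of 366 values per group, 130 were low in WKY (35.5%), 129 in SHR (35.2%) and 140 in QDG (38.3%). The number of low libraries differed between groups by at most 4 of 6, and by at most 2 in 50 members. The rule bears on this evenness. It ranked genes on their spread within groups, so a gene whose levels followed the groups could hardly enter. Both levels within a group are thus favoured by the choice itself. A gene low in most SHR and few WKY libraries would also often have been removed by the strain limit. These counts are therefore a description. The number of low libraries per member ran from 2 to 16 with a median of 6.

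They were spread over the libraries too. The number of two-level members at their low level ran from 17, in SHR replicates 3 and 5, to 29, in WKY replicate 5. The 61 members had 61 distinct sets of low libraries, so no pair of them switched in exactly the same set. Some sets overlapped closely. ENSRNOG00000048118 was listed at 0 in WKY replicate 2, SHR replicate 3 and QDG replicate 1. ENSRNOG00000016622 was listed at 0 in these libraries and in QDG replicate 3. ENSRNOG00000058438 and ENSRNOG00000059657 had the same low values in SHR replicate 4 (0.0462 FPKM), QDG replicate 1 (0.052) and QDG replicate 2 (0.053). ENSRNOG00000047746 and ENSRNOG00000045683 were listed at 0 together in 3 libraries, WKY replicate 3 and SHR replicates 1 and 5, and in no QDG library.

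**Figure D2:**
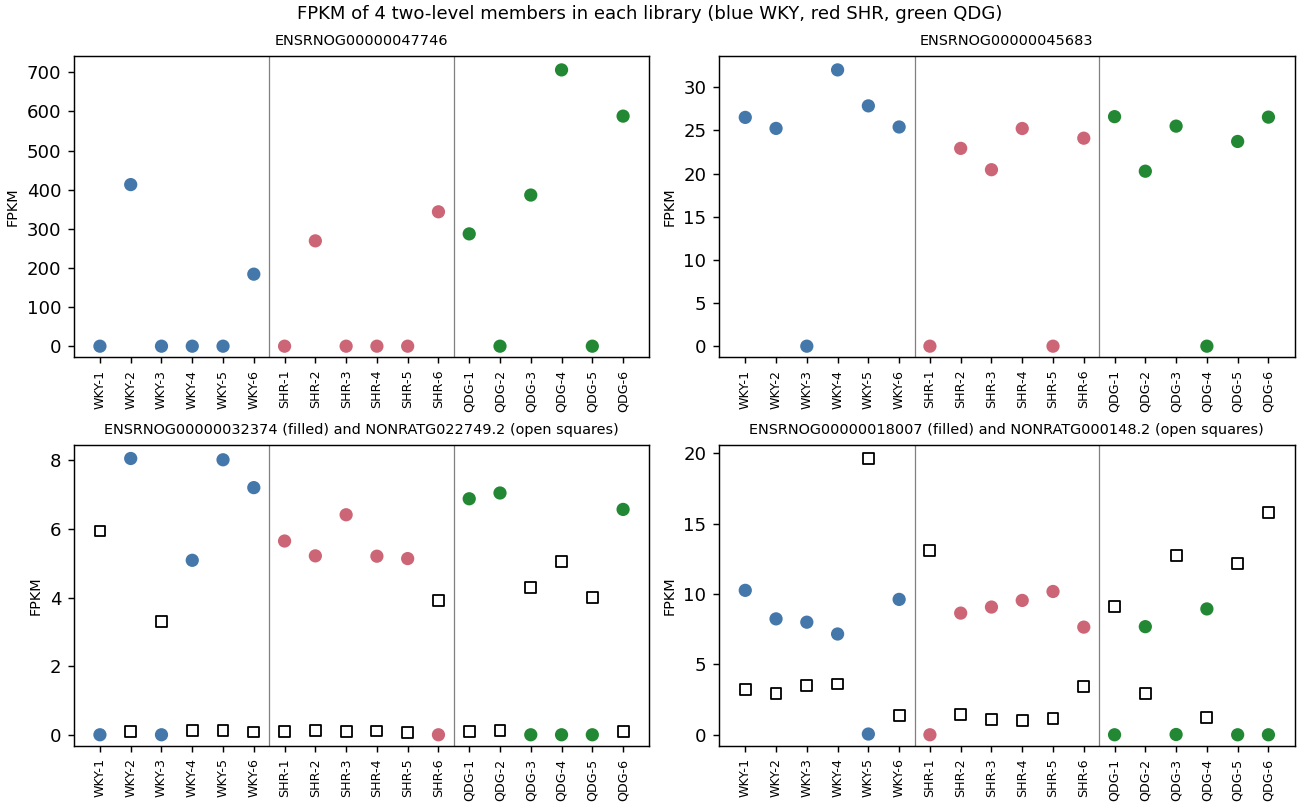
FPKM (vertical axis) of 4 two-level members in each of the 18 libraries (blue WKY, red SHR, green QDG), with open squares for a NONCODE gene of the opposite state in the lower panels. Each member sits at or near 0 in some libraries of every group and at a separate higher level in the others, and the NONCODE gene is high where the member is low.

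For some two-level members, another identifier in the files held the complementary pattern. A search, also made after the values were seen, took the 56 two-level members with 3 to 15 low libraries. It looked through 20235 genes reaching 1 FPKM in any library for values that split in exactly the same libraries with a gap of at least 0.5 on the log2 scale. A gene of opposite state was found for 11 of the 56 members (19.6%), and a gene of the same state for 0. All 11 opposite genes were from NONCODE, which supplied 6967 of the 20235 genes searched. The correlations over the 18 FPKM values ran from -0.983 to -0.901, as a description of pairs found by that search. Outside the set, 4 two-level Ensembl genes with strain means less than 1 apart were searched likewise, and 1 (25%) had a gene of opposite state. Such counterparts are thus not shown to be particular to the members.

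ENSRNOG00000032374 and NONRATG022749.2 are an example of such a pair. The former was listed at 0 in WKY replicates 1 and 3, SHR replicate 6 and QDG replicates 3, 4 and 5, and lay between 5.08 and 8.05 FPKM in the other 12 libraries. NONRATG022749.2 was at 5.94 and 3.31 FPKM in those 2 WKY libraries, 3.91 in that SHR library, and 4.29, 5.06 and 4.0 in those QDG libraries. In the other 12 libraries it lay between 0.0651 and 0.134 FPKM, so that the pair was never high in the same library (r = -0.934).

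A second pair changed places in other libraries. ENSRNOG00000018007 was at most 0.0524 FPKM in WKY replicate 5, SHR replicate 1 and QDG replicates 1, 3, 5 and 6, and between 7.16 and 10.3 FPKM in the other 12 libraries. NONRATG000148.2 lay between 9.10 and 19.6 FPKM in the former 6 libraries and between 1.03 and 3.61 in the latter 12 (r = -0.934). ENSRNOG00000018510 was at 0.0955 and 0.0644 FPKM in WKY replicates 1 and 6 and at 0.0760 in QDG replicate 2, and between 3.48 and 5.62 elsewhere. Its opposite, NONRATG013100.2, was between 4.54 and 5.31 FPKM in those 3 libraries and between 0.0494 and 2.0 in the 15 others. Whether the members of a pair overlap in the genome or share reads was not tested, as the files hold no coordinates. The other 45 members searched had no such counterpart under this rule.

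The 8 single-library members were set apart by 6 libraries, and 7 of them by a low value. ENSRNOG00000032740 was at 1.58 FPKM in SHR replicate 4 and between 16.5 and 31.4 in the other 17 libraries. ENSRNOG00000045636 was the one member with a lone high value, at 25.3 FPKM in SHR replicate 5 against 2.99 to 5.0 in the others. Of the rest, 2 were low in QDG replicate 6, 2 in QDG replicate 5, 1 in WKY replicate 3 and 1 in WKY replicate 5. The lone library held 74.4% to 81.1% of the within-group sum of squares of these members.

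The most abundant member, ENSRNOG00000057527, was graded and its spread was also mostly that of 1 library. Its WKY values were 3680, 2387, 183, 2818, 3626 and 3124 FPKM in replicates 1 to 6. In SHR it ran from 1890 to 2842 FPKM with a median of 2077, and in QDG from 1819 to 3573 with a median of 2620. WKY replicate 3 alone lay below 1819 FPKM, and it held 77.0% of the gene's within-group sum of squares.

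Some members are uncertain as separate genes. Profiles that correlated at 0.99 or more over the 18 FPKM values formed 4 sets with 11 members. By this limit 143 distinct profiles are left among the 150, although profiles outside the sets could be close too. ENSRNOG00000018148 was listed at 0 in 7 libraries, and ENSRNOG00000023841 in the same 7 and in WKY replicate 2. The largest set held 5 identifiers, among them ENSRNOG00000046600. Their values were 0.825 to 0.971 FPKM in SHR replicate 4, at least 7.5 in each of the other 17 libraries, and 47.1 to 54.0 in WKY replicate 5. ENSRNOG00000053824 and ENSRNOG00000058585 had the same values in all 18 libraries to the digits deposited. The other sets differed in level, and whether the identifiers of a set share reads was not tested. Their values are uncertain as separate measurements.

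No library alone drove the set. Each of the 18 was the library farthest from its group mean in at least 1 member, from 2 members in QDG replicate 3 to 17 in WKY replicate 5. That library lay below its group in 91 members and above it in 59. It held a median of 24.6% of a member's within-group sum of squares (10.3% to 81.1%), with at least 50% in 23 members and under 20% in 47.

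Summed over members, SHR replicate 4 held the largest share of the within-group sum of squares, 8.56%, where equal shares would give 5.56%. WKY replicate 5 followed at 7.03%, WKY replicate 6 at 6.90%, and WKY replicate 4 held the least at 3.01%. The order differed from that over all Ensembl genes kept, in which WKY replicate 5 held 10.9% and SHR replicate 4 held 6.15%. Counting each set of near-identical profiles once lowered SHR replicate 4 to 7.24%, close to WKY replicate 6 at 7.14% and WKY replicate 5 at 6.95%, so little of its lead was left. With each member given equal weight, WKY replicate 5 led with 8.88% and SHR replicate 4 followed at 7.36%. Which library held most thus depended on the weight given to members of very large SD and to repeated profiles.

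The graded members alone showed a more uneven division. SHR replicate 4 held 10.7% of their within-group sum of squares and WKY replicate 5 held 9.40%, and over distinct profiles WKY replicate 5 led with 9.30% against 6.12% in SHR replicate 4. WKY replicate 5 was the highest of its group in 32 of the 81 graded members, WKY replicate 1 in 28, QDG replicate 4 in 31 and SHR replicate 5 in 24. The lowest values were more evenly divided, with at most 18 of 81 in any library (SHR replicate 2, QDG replicate 3 and QDG replicate 5).

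**Figure D3:**
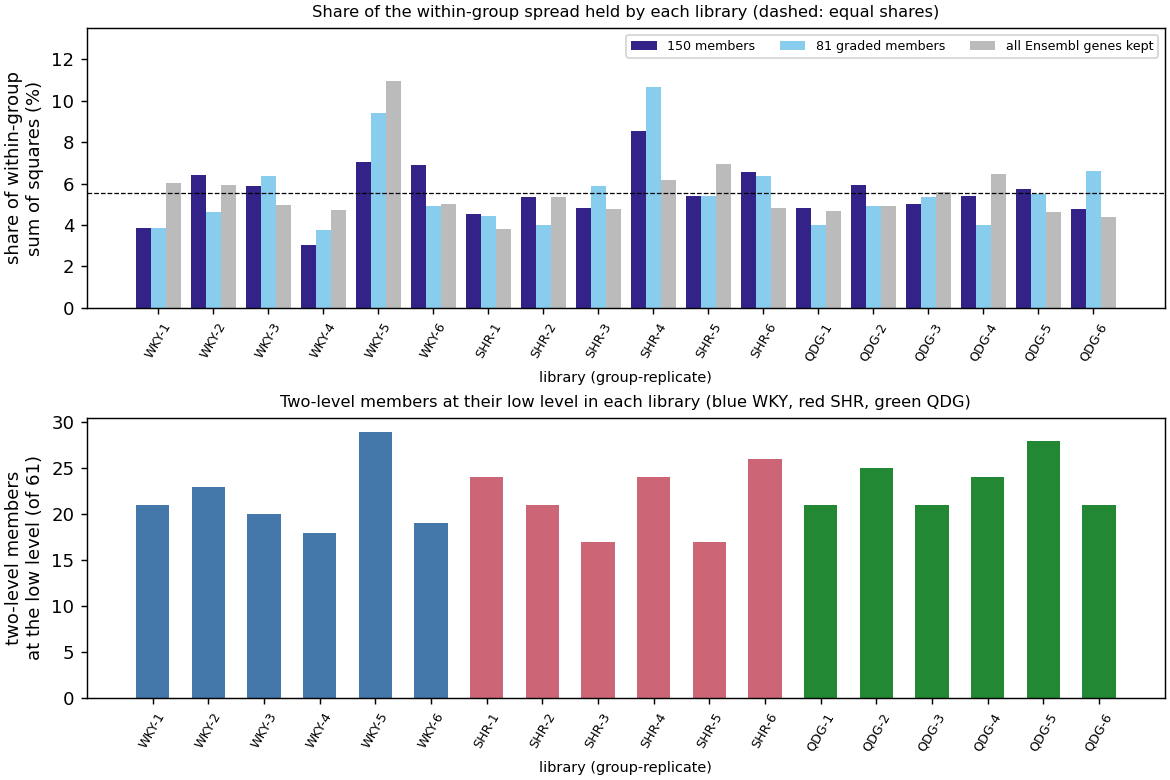
Upper panel: share of the within-group sum of squares (percent) held by each library over the 150 members, the 81 graded members and all Ensembl genes kept, with equal shares of 5.56% dashed. Lower panel: number of the 61 two-level members at their low level in each library. SHR replicate 4 stands highest for the members and WKY replicate 5 for all genes, and low levels number 17 to 29 in every library.

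The members varied to a like degree in the 3 groups. Their SD within a single group had a median of 0.69 in WKY, 0.70 in SHR and 0.69 in QDG, and was largest in WKY for 49, in SHR for 53 and in QDG for 48. Over all Ensembl genes kept, WKY had the largest SD for 47.9%, SHR for 22.1% and QDG for 30.0%. These counts use the SDs that chose the members and are given without a test.

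Spread in a group left out of the ranking was examined by ranking the candidates on the SD of 2 groups and reading the third. The candidates had already passed the filter over all 18 libraries and the limit on the SHR and WKY means. The third group was thus left out of the ranking only. For genes chosen in SHR and QDG, the median SD in WKY was 0.59, against 0.14 over all candidates ranked the same way. For genes chosen in WKY and QDG, the median SD in SHR was 0.63 against 0.11, and for genes chosen in WKY and SHR, the median in QDG was 0.60 against 0.12. Of each 150 chosen, 78 (52.0%), 92 (61.3%) and 90 (60%) were also among the 150 of largest SD in the group held out, and 139, 145 and 143 lay above its median. Genes of wide spread in 2 groups thus mostly lay above the median spread of the third. The values are a description without a test, as the filter used all 3 groups. Each of these choices shared 129 genes with the members.

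Members did not move together to any large extent. Over the 11175 pairs of members, correlations of the deviations from group means had a median of 0.01, and 3.51% reached 0.5 or more (392 pairs) while 2.26% were at -0.5 or less. Over all pairs of the 12396 Ensembl genes kept the median was 0.13, with 11.7% at 0.5 or more and 2.95% at -0.5 or less. Within the two-level members 3.22% of pairs reached 0.5, and within the graded members 4.81%. With each gene scaled to the same spread, the first principal component held 12.3% of the members' within-group variance against 22.2% over all Ensembl genes kept. All these points share the same 18 libraries and 15 degrees of freedom.

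Groups of co-varying members were small. Average linkage on 1 minus the correlation, with a height limit of 0.5 and at least 5 members, gave 3 modules with 8, 8 and 5 members, and 129 members fell in none. Module 1 held 7 graded and 1 single-library member of 1.27 to 8.15 FPKM on average, with a mean correlation of 0.65. All 8 lay above the group mean in SHR replicate 5, by 1.27 on the log2 scale on average, and in QDG replicate 4, by 0.92. In WKY no library mean departed by more than 0.23.

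Within module 1, ENSRNOG00000008015 was at 3.85, 3.65, 1.61, 2.22, 10.8 and 4.59 FPKM in SHR replicates 1 to 6. In QDG it was at 7.27, 8.59, 4.45, 16.1, 3.25 and 5.41 FPKM, and in WKY between 0.741 and 2.40 with a median of 1.85. SHR replicate 5 and QDG replicate 4 were the highest of their groups, and no QDG library reached down to the WKY range. ENSRNOG00000007607 ran in parallel, at 6.33, 7.96, 6.09, 4.79, 16.7 and 5.44 FPKM in SHR and 12.7, 15.9, 7.96, 22.8, 6.82 and 7.61 in QDG. In WKY it lay between 3.0 and 5.92 FPKM, below every QDG library and below 4 of the 6 SHR libraries.

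Module 2 was led by the set of near-identical identifiers and held only 4 distinct profiles among its 8 members (mean correlation 0.78). With each profile counted once, these would fall short of the minimum of 5 members, and the near-identical pairs raise that mean. All 8 were below the group mean in SHR replicate 4, by 2.97 on average, and above it in WKY replicate 5, by 1.27. ENSRNOG00000046600 was at 0.923 FPKM in SHR replicate 4 and between 18.8 and 27.1 in the other SHR libraries. Its WKY values were 21.0, 18.1, 12.2, 28.2, 54.0 and 21.3 FPKM, and its QDG values 18.7, 20.7, 30.6, 33.8, 12.1 and 8.69 FPKM.

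Module 3 held 3 two-level and 2 graded members with a mean correlation of 0.59. All 5 were below the group mean in WKY replicate 6, by 2.44 on average, and in QDG replicate 2, by 2.22. ENSRNOG00000018510, described above with its opposite NONCODE gene, belonged to it and was low in both libraries and in WKY replicate 1. In SHR the module's mean deviation stayed between -0.87 and 0.51.

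The modules rest on these few libraries. Without SHR replicate 5 the mean correlation within module 1 was 0.51, and without QDG replicate 4 as well it was 0.24. Within module 2 it was 0.57 without SHR replicate 4 and 0.45 without WKY replicate 5 as well. Near-identical identifiers count there as separate members and raise both means. Without both libraries its pairs ran from -0.13 to 0.99999. Within module 3 it was 0.45 without WKY replicate 6 and 0.07 without QDG replicate 2 as well. When modules were formed anew without 1 library, the 21 members in modules became 37 without WKY replicate 4, 38 without WKY replicate 5, 32 without WKY replicate 6, 33 without SHR replicate 2 and 34 without SHR replicate 6. In QDG, leaving out replicate 1 gave 41, replicate 2 gave 32, replicate 3 gave 34, replicate 4 gave 36 and replicate 6 gave 37.

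**Figure D4:**
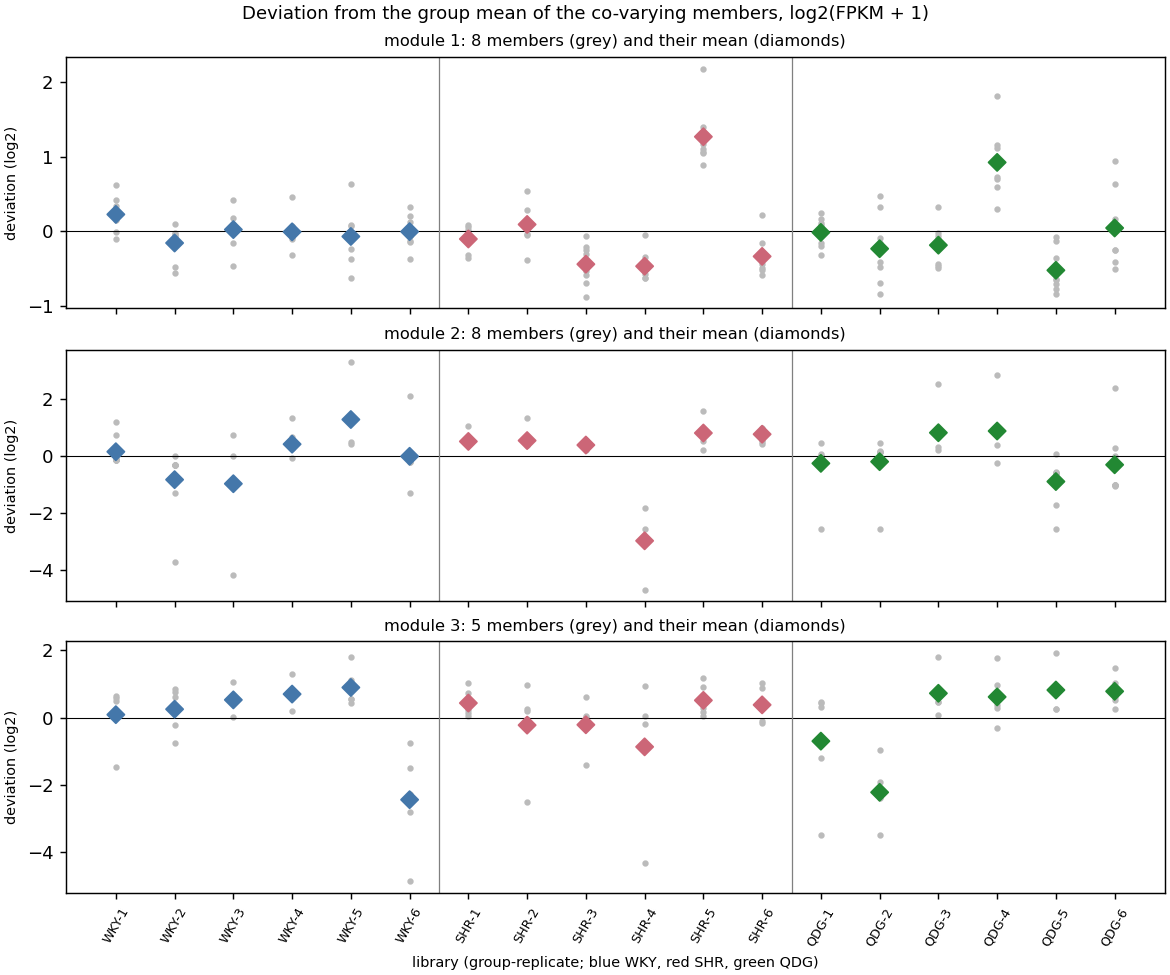
Deviation from the group mean on the log2(FPKM + 1) scale in each library for the members of the 3 modules (grey points) and their mean (diamonds; blue WKY, red SHR, green QDG). Module 1 is high in SHR replicate 5 (1.27) and QDG replicate 4 (0.92), module 2 is low in SHR replicate 4 (-2.97), and module 3 is low in WKY replicate 6 (-2.44) and QDG replicate 2 (-2.22).

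The comparison of QDG with SHR asks whether treatment moved these genes, and the rule did not use this difference, although it did use the within-group spread that sets the errors. None of the 150 members was called by limma at an adjusted p under 0.05, where 0.293% of all 17397 genes tested were called (0.207% higher and 0.0862% lower in QDG), and the smallest adjusted p was 0.301. At an unadjusted p under 0.05 there were 6 members (4.0%), all graded, against 1817 genes (10.4%) overall. The absolute log2 fold change had a median of 0.32 in the members and 0.07 over all genes, and the standard error (SE) a median of 0.39 against 0.09. Differences ran from -2.12 to 3.15, and 78 of 150 were toward higher values in QDG. A p that misses the threshold does not show that the groups are alike, and the large SEs follow from the spread that chose the members. Values that jump between 2 levels also depart from the normal spread that the model assumes.

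Differences of more than 1 on the log2 scale were seen in 9 members and none passed the test. ENSRNOG00000047746 had the largest, 3.15 with an SE of 2.49 (limma adjusted p = 0.718), with 4 of 6 QDG and 2 of 6 SHR libraries above 0. The groups did not overlap in 1 member, ENSRNOG00000059764, against 1.15% of all genes. It was at 5.88, 0.134, 6.15, 0.138, 5.89 and 3.18 FPKM in SHR and at 6.91, 6.62, 6.21, 7.31, 8.35 and 8.62 in QDG. Its log2 fold change was 1.25 (SE 0.66, limma adjusted p = 0.557), and WKY held 2 low libraries, at 0.196 and 0.584 FPKM, beside 4 between 7.87 and 12.3. Without QDG replicate 6, 1 member was called, lower in QDG.

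**Figure D5:**
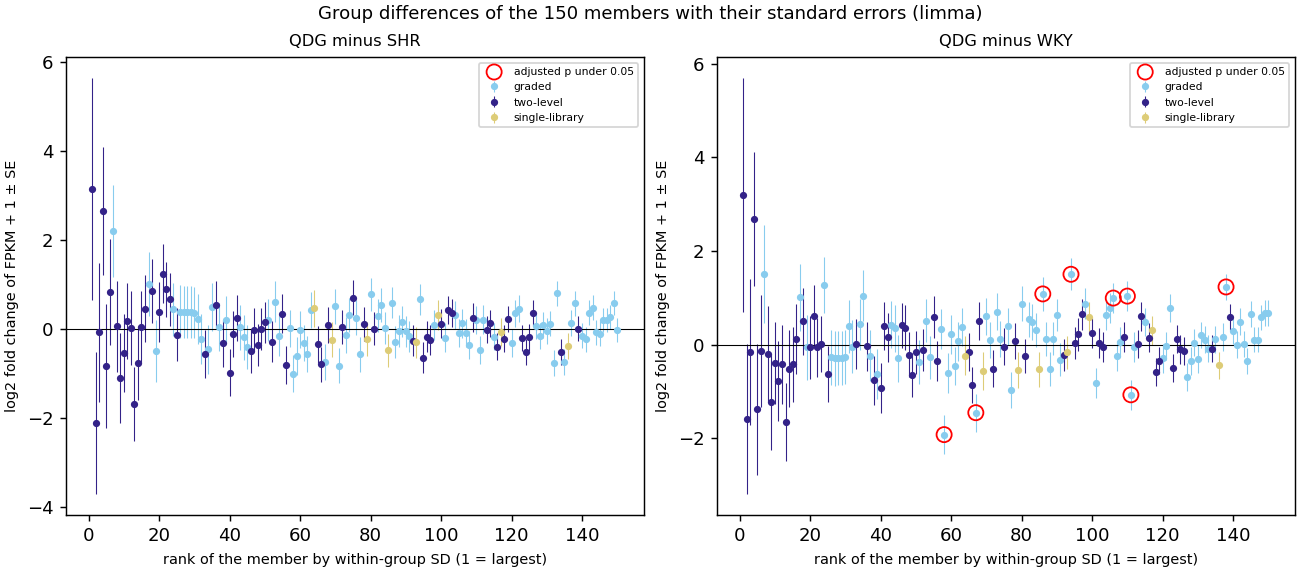
Log2 fold change of FPKM + 1 with its standard error from limma (vertical axis) for the 150 members by rank of within-group SD (horizontal axis), for QDG minus SHR and QDG minus WKY. Red rings mark adjusted p under 0.05, with 0 members ringed on the left and 8 on the right, all of them graded.

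QDG against WKY contains strain and treatment together and shares its libraries with the comparisons of both groups with SHR, one of which the rule limited. Called were 8 members (5.33%), 5 higher and 3 lower in QDG, where 20.9% of all genes tested were called, 11.7% higher and 9.2% lower. All 8 were graded, and 0 of the 61 two-level members were called by limma, with 1 at an unadjusted p under 0.05 and a smallest adjusted p of 0.139. The spread that chose the members also sets the errors here, and the two-level form selects wide jumps. The median SE was 0.46 in two-level members, 0.36 in graded members and 0.09 over all genes. Nothing is therefore read from these differences in the share called. The groups did not overlap in 3 members, against 10.4% of all genes. Leaving out QDG replicate 4 gave 5 calls, and leaving out QDG replicate 6 also gave 5.

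The members higher in QDG than in WKY by the largest amounts among those called were both of module 1, which supplied 3 of the 5. ENSRNOG00000008015 rose from 1.76 ± 0.563 FPKM in WKY to 7.52 ± 4.64 in QDG (SD, n = 6 each), and its level in SHR was 4.45 ± 3.28. The log2 difference was 1.5 with an SE of 0.35 (limma adjusted p = 0.00448). ENSRNOG00000007607 rose from 4.27 ± 0.960 to 12.3 ± 6.24 FPKM (SD, n = 6 each), and its level in SHR was 7.89 ± 4.44. The log2 difference was 1.23 with an SE of 0.29 (limma adjusted p = 0.00473). In both genes all 6 QDG libraries lay above all 6 WKY libraries. QDG replicate 4 was the highest of the 6 QDG libraries in each.

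The members lower in QDG than in WKY included 1 with a stepwise pattern. ENSRNOG00000008548 was at 5.77, 5.63, 5.0, 5.51, 5.24 and 6.13 FPKM in WKY and at 6.57, 1.91, 1.89, 1.78, 2.04 and 2.27 in SHR. In QDG it was at 0.122, 1.60, 0, 0, 0.189 and 6.68 FPKM. SHR replicate 1 and QDG replicate 6 alone stood at the WKY level or above, and the other 5 libraries of each of those groups lay below all WKY libraries. The log2 fold change between QDG and WKY was -1.92 (SE 0.42, limma adjusted p = 0.00304), and with a pseudocount of 0.1 FPKM in place of 1 it was -3.67. Between QDG and SHR it was -1.01 (SE 0.42, limma adjusted p = 0.408).

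ENSRNOG00000009450 was at 7.86, 5.27, 13.4, 4.24, 10.9 and 9.95 FPKM in WKY and at 8.95, 5.25, 4.43, 4.05, 1.70 and 5.20 in SHR. In QDG it was at 3.07, 8.93, 1.88, 2.71, 0.687 and 0.788 FPKM, so that only QDG replicate 2 reached into the WKY range. The log2 fold change between QDG and WKY was -1.45 (SE 0.40, limma adjusted p = 0.0165). Between QDG and SHR it was -0.74 (SE 0.40, limma adjusted p = 0.570).

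For SHR against WKY the rule itself held differences under 1, so the values are a description only. Called were 3 members, 2 higher and 1 lower in SHR, where 24.8% of all genes tested were called (12.2% higher and 12.6% lower), and nothing is read from that difference. The absolute log2 fold change had a median of 0.39 in the members and 0.14 over all genes.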

How the data were processed

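Each of the 18 libraries came as a deposited table of 1 value per gene, read here as FPKM normalized by the authors. The unit is an inference from fractional values and unequal library sums, since no header names it. Trizol extraction, rRNA depletion and a NEB library kit were used, per the labels' protocols. For the authors' software, limma is listed in the submitters' processing notes with no version. The alignment, the counting, the build, the annotation and the strandedness were not given in the sources used here. Groups and replicate numbers come from the sample titles.

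Genes reaching 1 FPKM in 6 or more libraries were kept and analysed as log2(FPKM + 1). Group differences were tested two-sided on all 17397 genes with limma 3.58.1 in R 4.3.3 (group means, intensity trend, robust moderation, Benjamini-Hochberg adjustment, threshold 0.05), a step tested on simulated data. Correlations and modules used deviations from group means (Python 3.11.15, scipy 1.17.1).

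The members and lists were chosen with earlier results of these data known. The gene lists could not be applied, because 0 of 47357 entries of the reference (GRCr8) held an Ensembl identifier. For the same reason no sequences are printed. For QDG against WKY, the rule named the 2 called identifiers of largest rise and the 2 of largest fall; the other identifiers, the 3 forms of spread, the partner search and the sets of near-identical profiles were chosen after the values were seen. Alternatives were scaling, pseudocount, filter, tree height, sample weights, a replicate block and each library left out.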

Additional observations from a re-analysis of the deposited data

Results flagged for a closer look

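Among 60 groups of 6 values examined (20 measures in 3 groups), 21 (35.0%) held 1 library far from the other 5 by Dixon's criterion. The usual rate of about 1 in 20 by chance does not apply here, since the members were chosen for their spread within groups and most identifiers below for their patterns, so the values are a description and nothing is read from their number.

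In WKY, ENSRNOG00000045683 was listed at 0 in replicate 3 and lay between 25.2 and 32.0 FPKM in the others. ENSRNOG00000057527 was at 183 FPKM in the same library and between 2387 and 3680 in the others. In WKY replicate 5, ENSRNOG00000018007 was at 0.0524 FPKM (7.16 to 10.3 in the others) and ENSRNOG00000032740 at 31.4 FPKM (19.9 to 23.3). The mean deviation of module 3 was -2.44 in WKY replicate 6 and 0.08 to 0.89 in the others.

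In SHR, replicate 5 stood apart in module 1, with a mean deviation of 1.27 against -0.47 to 0.09. The same library was high in ENSRNOG00000008015 (10.8 FPKM against 1.61 to 4.59), ENSRNOG00000007607 (16.7 against 4.79 to 7.96) and ENSRNOG00000045636 (25.3 against 2.99 to 3.64), which are members of that module. SHR replicate 4 stood apart in module 2, with a mean deviation of -2.97 against 0.38 to 0.80, and in its members ENSRNOG00000046600 (0.923 FPKM against 18.8 to 27.1) and ENSRNOG00000032740 (1.58 against 18.6 to 21.6). In SHR replicate 1, ENSRNOG00000018007 was listed at 0 FPKM (7.65 to 10.2 in the others) and ENSRNOG00000008548 was at 6.57 FPKM (1.78 to 2.27). ENSRNOG00000032374 was listed at 0 in SHR replicate 6 and between 5.13 and 6.41 FPKM in the others.

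In QDG, 7 members were listed at 0 in replicate 2, against 11 to 13 in the other libraries. In the same library ENSRNOG00000009450 was at 8.93 FPKM (0.687 to 3.07 in the others) and ENSRNOG00000018510 at 0.0760 FPKM (3.79 to 4.76). In QDG replicate 4, ENSRNOG00000045683 was listed at 0 FPKM (20.3 to 26.6) and ENSRNOG00000045636 was at 4.78 FPKM (3.36 to 3.76). ENSRNOG00000008548 was at 6.68 FPKM in QDG replicate 6 and between 0 and 1.60 in the others.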

How the results depend on the processing

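Which genes belong to the set depended on the scale. With a pseudocount of 0.1 FPKM 92 of the 150 members would have been chosen, with a filter at 5 FPKM 83, and from the SD within WKY alone 99, whereas median centring kept 144, quantile normalization 146, an SD relative to its trend on expression 125, and each library left out 132 to 144. Library shares were computed on the original members or a part of them, not on a set chosen anew. They were not computed for the SD within WKY alone or for the SD relative to its trend. In each setting where they were computed and that included it, SHR replicate 4 held the largest share of the summed spread. With members weighted equally it did not, and WKY replicate 5 led with 8.88% against 7.36%. The share of SHR replicate 4 was 7.17% with a pseudocount of 0.1 and 7.24% with 1 member per near-identical profile, against 8.56%. With a library left out the largest share was 7.84% to 9.35%, the former being that of WKY replicate 5 without SHR replicate 4. The 21 members in modules became 9 with a filter at 5 FPKM, which left 83 members to group, 7 at a tree height of 0.4, 51 at 0.6, and 20 to 41 with a library left out. Looser and stricter limits for 2 levels, added after seeing the data, gave 78 and 42 members against 61.

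For QDG against SHR, 0 members were called in all other settings, also among the graded members alone, and 0 to 1 with a library left out. For QDG against WKY the 8 calls became 5 with a filter at 5 FPKM, with fewer members tested, and 5 to 10 with a library left out. For SHR against WKY, where the rule bounds the difference, the 3 calls became 7 under median centring and also 7 under quantile normalization, 6 with a pseudocount of 0.1, 9 with sample weights and 0 to 8 with a library left out; the cause was not tested. The 4 identifiers named for QDG against WKY kept their direction and call in all settings run, with adjusted p from 0.00115 to 0.0169 for ENSRNOG00000008015, from 0.00105 to 0.0177 for ENSRNOG00000007607, from 3.9e-06 to 0.00884 for ENSRNOG00000008548 and from 0.00132 to 0.0412 for ENSRNOG00000009450. ENSRNOG00000008015 was not kept by the filter at 5 FPKM.

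Deviations of libraries with the same replicate number correlated at -0.05 to 0.16 for SHR and WKY. The range was -0.06 to 0.13 for QDG and SHR, and -0.04 to 0.19 for QDG and WKY. No values for libraries of different number are given beside them, so they do not decide whether the replicate number pairs libraries. With the number as a replicate block, 0 members were called for QDG against SHR, 7 for QDG against WKY and 5 for SHR against WKY. Absolute depth is unknown, so counting error at the low values could not be stated.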
